A study of Mus musculus with 1012 samples.

Results

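The interferon-stimulated genes were followed here as a module of 43 genes, taken by name from the 30452 genes of the count table. The members were set as a list of names, drawn up with earlier results of these data known, and all 43 were found by symbol and Ensembl identifier. Of these, 41 passed the filter on low counts and were tested, whereas Mx1 and Rsad2 did not pass it and are given as values. The study profiled single mouse cells by Live-seq, in which a fluidic probe withdraws a sample of cytoplasm and leaves the cell alive, and by scRNA-seq of lysed whole cells. The deposited table held 1012 libraries, of which 296 were Live-seq, 554 were scRNA-seq and 162 were whole IBA cells collected in a test of what the extraction does to a cell. RAW cells are a macrophage-like mouse line and were given lipopolysaccharide (RAW_LPS) or PBS (RAW_Mock). Most RAW cells were RAW-G9, a clone that carries a Tnf promoter-driven mCherry reporter and a relA-GFP fusion, and 11 RAW_LPS and 1 RAW_Mock Live-seq libraries of batch 5Reseq were wild-type RAW264.7. IBA cells are an immortalized brown preadipocyte line and received no LPS. ASPCs are primary mouse adipose stem and progenitor cells, taken before (ASPC_Pre) or after (ASPC_Post) induction with the adipogenic DMIR cocktail of dexamethasone, isobutylmethylxanthine, insulin and rosiglitazone. The IBA cells of the extraction test were labelled 0 h, 1 h and 4 h; those of 1 h and 4 h had been sampled before, whereas the 70 labelled 0 h match in number the unsampled control cells of the study's methods.

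Type I interferon is secreted by cells that sense a pathogen, and lipopolysaccharide elicits it in macrophages through the receptor TLR4, its adaptor TRIF and the factor IRF3. Interferon then acts on its producer and on neighbouring cells through the receptor chains IFNAR1 and IFNAR2, the kinases JAK1 and TYK2, and a complex of transcription factors that binds the interferon-stimulated response element. The genes so induced sense viral RNA, block translation or replication, modify proteins with ISG15 or ADP-ribose, and feed back on the pathway itself.

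The promoters of the members were examined for the core of that element, GAAANNGAA on either strand, in windows of 300 bases from 250 before to 50 after each RefSeq start site (GRCm38.p6). A window was found for 34 members, and 20 of them (58.8%) held the core, whereas it was present in 9.76% of all 27025 genes with a window and in 8.56% of all 32851 windows. An NF-kB element was present in 8 of the 34 members and in 9.55% of all genes. A match of letters is a description of the window and not a bound site. The stretches below were chosen because they belong to the sensor, IFIT, OAS, ISG15, viperin and guanylate-binding protein genes whose values follow; capitals mark every match of the core, overlapping matches included.
Ifih1, chr2:62646319-62646407, minus strand: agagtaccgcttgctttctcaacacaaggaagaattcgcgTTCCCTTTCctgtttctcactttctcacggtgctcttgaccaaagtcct
Isg15, chr4:156200848-156200936, minus strand: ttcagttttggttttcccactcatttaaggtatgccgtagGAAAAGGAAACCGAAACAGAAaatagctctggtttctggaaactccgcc
Ifit1, chr19:34640740-34640828, plus strand: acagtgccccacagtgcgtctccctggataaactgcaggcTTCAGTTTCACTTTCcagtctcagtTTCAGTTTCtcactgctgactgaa
Ifit3, chr19:34583334-34583422, plus strand: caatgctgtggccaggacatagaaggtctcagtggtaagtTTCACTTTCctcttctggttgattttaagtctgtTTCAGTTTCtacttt
Ifit3b, chr19:34607730-34607818, plus strand: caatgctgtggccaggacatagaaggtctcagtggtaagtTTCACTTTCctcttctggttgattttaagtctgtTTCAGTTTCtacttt
Oas3, chr5:120777686-120777774, minus strand: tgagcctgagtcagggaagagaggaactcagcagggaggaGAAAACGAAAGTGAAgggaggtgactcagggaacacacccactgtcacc
Rsad2, chr12:26456523-26456611, minus strand: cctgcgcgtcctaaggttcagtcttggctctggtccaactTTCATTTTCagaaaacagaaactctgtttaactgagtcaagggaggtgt
Gbp5, chr3:142496730-142496818, plus strand: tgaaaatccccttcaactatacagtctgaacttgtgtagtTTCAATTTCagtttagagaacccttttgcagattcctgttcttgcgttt
Gbp7, chr3:142530244-142530332, plus strand: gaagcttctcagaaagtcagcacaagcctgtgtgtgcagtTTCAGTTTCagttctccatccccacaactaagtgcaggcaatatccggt
The stretches of Ifit3 and Ifit3b were equal at 89 of 89 bases. These paralogs share most of their sequence, so their separate counts are uncertain.

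Counts were summed over the cells of a technique, state and batch, which gave 30 sums of 4 to 95 cells and 1968561 to 45563500 counts; levels are counts per 1000000 kept counts (CPM). The markers followed the labelled cell types: the 10 macrophage genes together reached 2935 to 34874 CPM in the RAW sums and 0.694 to 607 CPM in all others, with the highest of the latter in IBA of batch 9_1, and the 10 mesenchymal genes reached 0 to 5.63 CPM in RAW and 2614 to 20184 CPM elsewhere. Of 4 dendritic and lymphoid markers in the table, 3 were at 0 in every RAW sum. The other, Siglech, a plasmacytoid dendritic cell lectin, stood at 5.05 to 22.9 CPM in scRNA-seq RAW_Mock and 0.412 to 1.94 CPM in RAW_LPS, and its part in the results was not tested. In scRNA-seq batch scRNA, 4 of 95 RAW_Mock cells carried the 12 genes of an LPS response list (among them Tnf, Il6 and Cxcl2) at 17981 to 18860 CPM, whereas the other 91 did not exceed 4382 CPM and the median RAW_LPS cell of the batch had 13359 CPM. These 4 cells also carried the members at 6274 to 10071 CPM, against at most 1859 CPM in the other 91, with 29 to 35 of the 43 members detected. They made up 4.21% of the cells of that RAW_Mock sum and held 56.9% of its member counts; 26 of the 42 members with a count there had over 50% of it in these cells. Whether these wells carry the right label was not tested. Counts, medians and several members' values that rest on this sum are also given without them.

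LPS-treated RAW cells carried more of the module than mock cells in every batch of both techniques that held a sum of each. In scRNA-seq, the summed level of the members was 482, 638 and 1689 CPM in RAW_Mock and 1268, 3572 and 3919 CPM in RAW_LPS in batches 8_8, 9_1 and scRNA. The RAW_LPS sum was thus 2.63, 5.60 and 2.32 times the RAW_Mock sum of its batch, the last 4.80 times without the 4 mock cells. The highest RAW_Mock sum exceeded the lowest RAW_LPS sum, so the groups overlapped across batches. Without these cells the groups did not overlap, the highest RAW_Mock sum then being 817 CPM. In Live-seq, RAW_Mock reached 1598, 810, 516 and 612 CPM in batches 6, 7, 8_8 and 9_4, and RAW_LPS reached 1799, 6449, 995 and 5105 CPM. The ratio within a batch was 8.35 in 9_4 and 7.96 in 7, but 1.93 in 8_8 and 1.13 in 6. In batch 6, 1 of 4 RAW_LPS cells held 45.05% of the member counts, and without it the sum was 1259 CPM. In RAW_Mock of that batch 1 of 8 cells held 44.7%, and without it the sum was 1023 CPM. The RAW_LPS sum without its cell thus lay below the full RAW_Mock sum and above the RAW_Mock sum without its own. Wild-type RAW_LPS cells, sampled by Live-seq in batch 5Reseq alone, had the highest sum at 12409 CPM. The only wild-type RAW_Mock library, 1 cell of that batch and too few for a sum, had 4964 CPM with 2 members detected. The module was also present without LPS in the adipose cells, at 370 to 862 CPM in the 3 scRNA-seq IBA sums and at 556 and 1384 CPM in the ASPC_Pre sums.

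**Figure D1:**
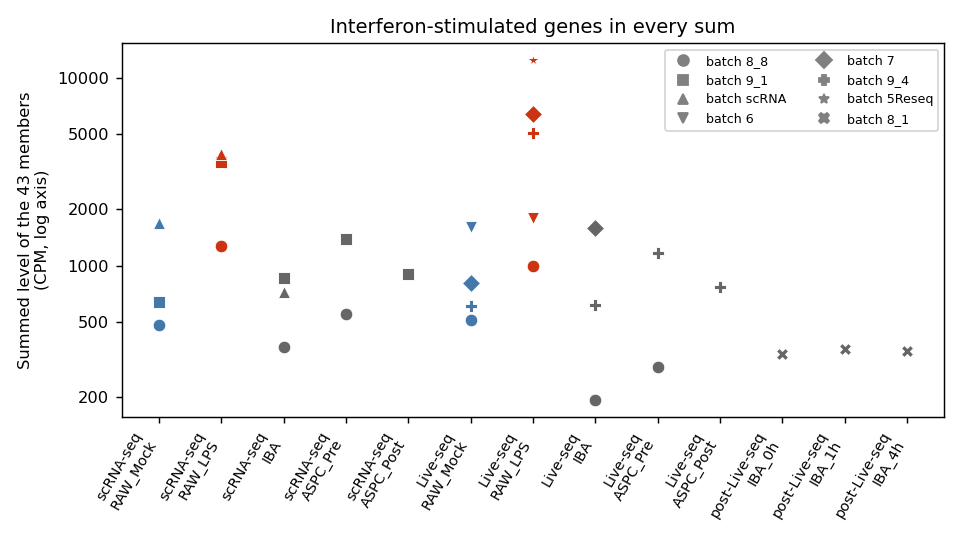
Summed level of the 43 interferon-stimulated genes (CPM, log axis) in each of the 30 sums, by technique and state; each marker is 1 sum and its shape gives the batch, with RAW_Mock in blue and RAW_LPS in red. RAW_LPS lies above RAW_Mock within each batch, and batch 8_8 (circles) is the lowest of its group wherever it was measured.

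In scRNA-seq, 6 of the 41 members tested rose with LPS at an adjusted p under 0.05 and an absolute log2 fold change over 1, and none fell. Over all 13563 genes tested, 1.23% were called, 0.922% as higher and 0.310% as lower. The 6 were Mx2, Cmpk2, Ifih1, Irf9, Tor3a and Ifi35. The estimate was positive for 39 of 41 members and for 49.3% of all genes. The median log2 fold change was 2.25 against -0.01 over all genes (also 2.25 with Ifit3b, at 0 in RAW_Mock, at its lower bound). At an unadjusted p under 0.05, 28 members were higher and 0 lower, where 1975 of the 13563 genes passed in either direction. The batch enters this model as a replicate block. Without the block 0 members were called. Then 18 members were higher at an unadjusted p under 0.05, where 1390 genes passed in either direction. Without the 4 mock cells 20 members were called, the same 6 among them, as were 290 of the 13563 genes, and the median was 2.91. These cells were picked after the values were seen, by their LPS response and among RAW_Mock alone, so the added calls are a description and support nothing. Leaving out batch 8_8, 9_1 or scRNA left 0, 1 and 0 members called. In 34 of 43 members the RAW_LPS sum was above the RAW_Mock sum of its batch in all 3 batches. The share of all genes in this order was not computed.

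**Figure D2:**
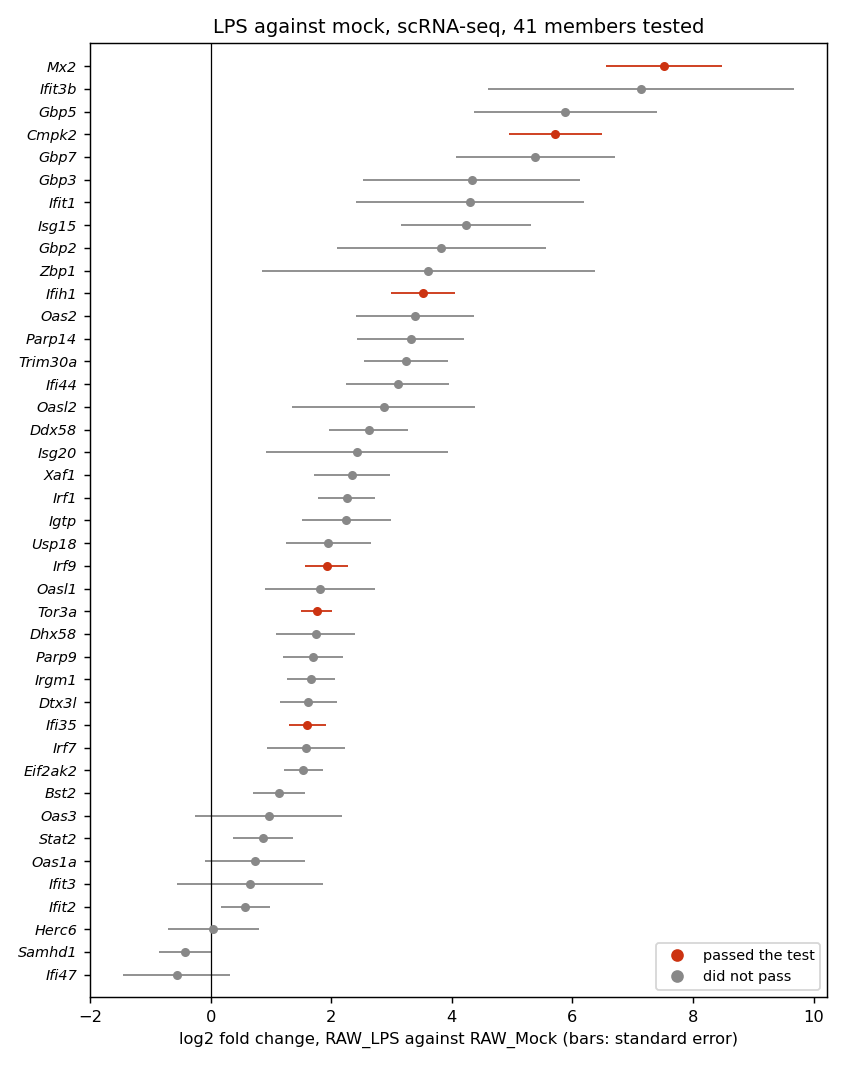
Log2 fold change of RAW_LPS against RAW_Mock in scRNA-seq for the 41 members tested, with standard errors as bars; red marks the 6 members that passed the test and grey the others. Estimates run from -0.56 (Ifi47) to 7.52 (Mx2), and 39 of 41 are above 0; the point of Ifit3b, at 0 in RAW_Mock, depends on the prior count.

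The cytosolic sensors of nucleic acids rose in part. Ifih1 encodes MDA5, which detects long double-stranded RNA, and stood at 0.693, 13.7 and 48.2 CPM in RAW_Mock and 33.7, 118.0 and 284.4 CPM in RAW_LPS in batches 8_8, 9_1 and scRNA. It passed the test (log2 fold change 3.52, SE 0.53, adjusted p = 0.0231), although its RAW_LPS sum of batch 8_8 lay below the RAW_Mock sum of batch scRNA. Ddx58, which encodes the RNA sensor RIG-I, had 7.16, 3.99 and 63.9 CPM in RAW_Mock and 44.8, 81.4 and 162.9 CPM in RAW_LPS. It did not pass (log2 fold change 2.62, SE 0.66, adjusted p = 0.108), and its estimate without the 4 mock cells was 3.07. Dhx58, encoding the related regulator LGP2, and Zbp1, a sensor of Z-form nucleic acids, had estimates of 1.74 and 3.61 and did not pass.

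Among the transcription factors, Irf9, the DNA-binding subunit of the interferon-activated complex, rose (log2 fold change 1.92, SE 0.36, adjusted p = 0.0417). Its partner Stat2 did not pass, at 23.1, 13.8 and 48.3 CPM in RAW_Mock and 19.4, 58.4 and 77.6 CPM in RAW_LPS, nor did Irf7, the factor that amplifies interferon transcription, at 5.08, 8.34 and 66.6 and 6.54, 99.1 and 124.3 CPM. For Irf7 the RAW_Mock and RAW_LPS sums of batch 8_8 were nearly level, whereas batch 9_1 separated them widely. The 4 mock cells held 89.3% of the Irf7 counts of their sum, which stood at 8.01 CPM without them, and the estimate then went from 1.58 to 2.91. Irf1 reached 14.8, 68.1 and 77.6 CPM against 9.70, 10.3 and 12.6 CPM in RAW_Mock; its sums did not overlap, and its adjusted p was 0.0608.

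The ISG15 system is a ubiquitin-like modifier with its own ligases and protease. Isg15 itself stood at 0, 0.626 and 13.3 CPM in RAW_Mock and 11.1, 42.7 and 79.6 CPM in RAW_LPS (log2 fold change 4.23, SE 1.08, adjusted p = 0.111). The 4 mock cells held 94.7% of the last RAW_Mock value, which was 0.785 CPM without them. Usp18, which removes ISG15 and restrains the receptor, had 10.4, 14.5 and 38.6 CPM and 28.1, 139.1 and 89.7 CPM in the same order (log2 fold change 1.95, SE 0.70, adjusted p = 0.245); 124 of its exon bases overlap the gene Gm44148, and counting did not use strand. Herc6, an ISG15 ligase, showed an estimate of 0.05.

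The IFIT proteins bind foreign RNA and block its translation. Ifit3b was at 0 in all 3 RAW_Mock sums and at 0.727, 1.10 and 0.102 CPM in RAW_LPS, a total of 38 counts that is at least 13.0-fold above a floor of 3 counts over the RAW_Mock sums. It did not pass the test (adjusted p = 0.265). Ifit1 was at 0 in RAW_Mock of batches 8_8 and 9_1 and at 32.7 CPM in batch scRNA, against 10.2, 83.6 and 71.3 CPM in RAW_LPS. All but 0.0654 CPM of the RAW_Mock value came from the 4 mock cells, as did the whole of the Ifit3 value of 15.4 CPM there. The estimates were 4.30 for Ifit1 and 0.65 for Ifit3, and neither passed, nor did Ifit2 (log2 fold change 0.57, SE 0.41, adjusted p = 0.609).

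The OAS enzymes make oligoadenylates that switch on RNase L. Oasl1, an OAS-like protein that represses translation of Irf7, stood at 23.8, 23.6 and 94.9 CPM in RAW_Mock and 50.9, 273.0 and 291.6 CPM in RAW_LPS (log2 fold change 1.81, SE 0.91, adjusted p = 0.423), with 24.6 CPM in the last RAW_Mock sum and an estimate of 2.64 without the 4 mock cells. Oas3 had 20.8, 14.4 and 119.8 CPM and 23.0, 171.0 and 192.6 CPM in the same order (log2 fold change 0.96, SE 1.22, adjusted p = 0.824). Oas1a had 64.2, 57.9 and 81.0 CPM in RAW_Mock and 71.2, 153.3 and 119.9 CPM in RAW_LPS (log2 fold change 0.73, SE 0.83, adjusted p = 0.784). RAW_Mock already carried each of these at over 10 CPM, and the family's 5 estimates, Oas2 (3.39) and Oasl2 (2.87) included, did not pass.

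Among the other antiviral effectors, the largest called change belonged to Mx2, a dynamin-like GTPase gene that the mouse annotation lists as a polymorphic pseudogene. It had 0, 0.157 and 0.175 CPM in RAW_Mock and 0.484, 23.8 and 32.1 CPM in RAW_LPS (log2 fold change 7.52, SE 0.96, adjusted p = 0.0147), with no overlap between the groups. Cmpk2, a mitochondrial nucleotide kinase, had 0, 1.06 and 0.495 CPM in RAW_Mock and 7.26, 30.2 and 28.4 CPM in RAW_LPS (log2 fold change 5.72, SE 0.77, adjusted p = 0.0151). The 4 mock cells held no count of either. Of the others tested, Eif2ak2 (the kinase PKR, which halts translation), Isg20 (an exonuclease) and Bst2 (which tethers budding virus to the cell surface) had estimates of 1.54, 2.43 and 1.13 and did not pass. Mx1 and Rsad2, the latter encoding viperin, were scarce, at 0, 0 and 5.80 CPM for Rsad2 in RAW_Mock, all of it from the 4 mock cells, and 0, 10.1 and 1.56 CPM in RAW_LPS. Samhd1, a dNTP hydrolase that restricts retroviruses, was 83.9, 87.6 and 67.2 CPM in RAW_Mock and 25.2, 85.8 and 51.0 CPM in RAW_LPS, with an estimate of -0.43.

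The guanylate-binding proteins and immunity-related GTPases attack pathogen-bearing vacuoles. Gbp5 was at 0 in RAW_Mock of batches 8_8 and 9_1 and at 8.77 CPM in batch scRNA, where RAW_LPS reached 24.7, 39.5 and 61.2 CPM over the batches (log2 fold change 5.88, SE 1.52, adjusted p = 0.114). Gbp7 showed the same order, with 0, 0 and 1.02 CPM in RAW_Mock and 8.72, 11.3 and 10.4 CPM in RAW_LPS (log2 fold change 5.39, SE 1.32, adjusted p = 0.0987). Gbp3 had 0.231, 0 and 14.8 CPM in RAW_Mock and 20.8, 23.1 and 29.7 CPM in RAW_LPS (log2 fold change 4.33, SE 1.80, adjusted p = 0.313). None of the 3 overlapped between groups. The 4 mock cells held all the RAW_Mock counts of Gbp5 and Gbp7 and 97.4% of those of Gbp3 in their sum. Irgm1, an immunity-related GTPase, had 20.8, 45.6 and 28.4 CPM in RAW_Mock and 22.5, 206.2 and 107.9 CPM in RAW_LPS (log2 fold change 1.66, SE 0.40, adjusted p = 0.0967). Gbp2 and Igtp had estimates of 3.82 and 2.25 and did not pass, and Ifi47 had the lowest of all members at -0.56.

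Parp9 and Dtx3l form an ADP-ribosyltransferase and ubiquitin ligase pair whose genes lie head to head on chromosome 16, and Parp14 is a related ADP-ribosyltransferase. Parp14 had 15.2, 6.54 and 40.8 CPM in RAW_Mock and 117.7, 224.2 and 279.1 CPM in RAW_LPS (log2 fold change 3.32, SE 0.89, adjusted p = 0.127). Parp9 had 36.5, 34.5 and 85.7 CPM and 106.6, 133.9 and 214.4 CPM in that order (log2 fold change 1.70, SE 0.50, adjusted p = 0.155), and Dtx3l 26.3, 25.4 and 60.9 CPM and 75.8, 93.6 and 140.2 CPM (log2 fold change 1.62, SE 0.47, adjusted p = 0.156). None passed the test, yet in all 3 genes every RAW_LPS sum exceeded every RAW_Mock sum. Parp9 and Dtx3l share 458 exon bases on opposite strands, so their reads there cannot be told apart.

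Of the remaining members, Tor3a, an interferon-responsive ATPase of the torsin family, passed the test at 43.2, 101.2 and 128.8 CPM in RAW_Mock and 213.3, 300.5 and 256.2 CPM in RAW_LPS (log2 fold change 1.76, SE 0.26, adjusted p = 0.0226). Ifi35, an interferon-induced leucine zipper protein, rose with it (log2 fold change 1.60, SE 0.30, adjusted p = 0.0439). Ifi44 had 4.39, 8.45 and 137.5 CPM in RAW_Mock and 23.0, 225.9 and 235.1 CPM in RAW_LPS (log2 fold change 3.10, SE 0.86, adjusted p = 0.141), and its RAW_Mock sum of batch scRNA lay within the range of RAW_LPS; that sum was 22.5 CPM and the estimate 3.84 without the 4 mock cells. Xaf1, which promotes apoptosis, and Trim30a, a regulator of TLR signalling, had estimates of 2.34 and 3.24; neither passed with all cells. Per kilobase of exon, the highest mean RAW_LPS levels over the 3 batches were 78.7 CPM for Oasl1, 65.9 for Tor3a and 60.9 for Oas1a. Over the whole module, the sums did not overlap between RAW_LPS and RAW_Mock in 13 of the 41 members tested, all higher with LPS, where 6.05% of all genes were higher and 11.5% lower without overlap. Without the 4 mock cells this held for 27 members, all higher, where 6.60% of all genes were higher.

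**Figure D3:**
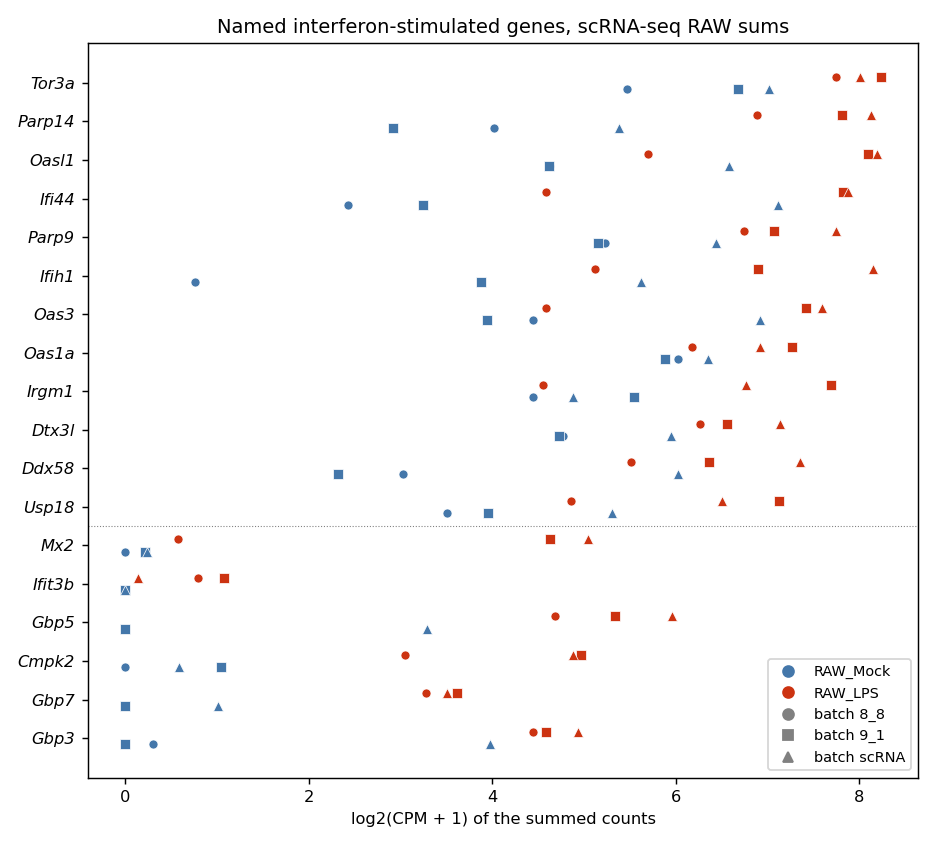
Level of 18 interferon-stimulated genes (log2 of CPM + 1) in each scRNA-seq RAW sum, RAW_Mock in blue and RAW_LPS in red, with the batch as the marker's shape; the dotted line parts the 12 members of highest level from the 6 of largest change. The RAW_Mock sum of batch scRNA (blue triangles) is the highest RAW_Mock value for most genes, and Gbp3, Gbp5, Gbp7, Cmpk2, Mx2, Ifit3b, Parp9, Parp14, Dtx3l and Tor3a do not overlap between the groups.

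The upstream pathway was described from a list of its own. Of 31 tested genes that induce, carry or restrain interferon signalling, 1 was higher and 30 did not pass, with a median log2 fold change of 0.36; the exception was Ikbke, a kinase upstream of IRF3 (log2 fold change 3.16, SE 0.55, adjusted p = 0.0346). Ifnb1, which encodes interferon beta, was nearly absent: 6 counts in 2 of 149 RAW_LPS cells of scRNA-seq, 2 counts in 1 of 50 RAW_LPS cells of Live-seq, and 0 counts in the RAW_Mock cells of either technique, which allows a share of up to 1.91% in scRNA-seq and 2.88% in Live-seq. The receptor chains had estimates of 0.16 (adjusted p = 0.965) for Ifnar1 and -0.35 (adjusted p = 0.796) for Ifnar2. Among 43 other tested genes regulated by interferon, 1 was called, Slfn5 of the Schlafen family (log2 fold change 3.80, SE 0.66, adjusted p = 0.0339), and the median was 1.15. Of the 12 genes of the LPS response list, 1 was called, the NF-kB inhibitor gene Nfkbia (log2 fold change 2.23, SE 0.37, adjusted p = 0.0318), with a median of 4.36. With 3 batches, a gene of the LPS response list such as Tnf, at a log2 fold change of 3.39 and an adjusted p of 0.116, did not pass either.

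Promoter content and response were set side by side as a description. The 19 tested members with the core of the response element had a median log2 fold change of 3.10 with LPS in scRNA-seq and 1 call, Ifih1, whereas the 14 without it had a median of 1.71 and 3 calls. The 8 tested members with no window had a median of 2.63 and 2 calls, Mx2 and Tor3a. Without the 4 mock cells the medians were 3.84, 2.18 and 3.01 in the same order. The calls were then 11, 5 and 4, where 290 of all 13563 genes were called. The order of the calls with and without the core was thus not the same in both fits. The added calls are a description, as stated above.

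In Live-seq, no gene of 13463 was called between RAW_LPS and RAW_Mock by edgeR's quasi-likelihood test, so the share called was 0%, and no member was. At an unadjusted p under 0.05, 539 genes and 9 members, all 9 of them higher, were found, and DESeq2 called 642 genes and 4 members. The estimate was positive for 34 of 41 members and for 36.1% of all genes. The median log2 fold change was 2.79 over the members, against -0.48 over all genes. Ifit3b was at 0 in both states of the batches compared, and without it and with 3 members that were at 0 in RAW_Mock at their lower bounds the median of 40 members was 3.08. The sums of Isg15, Gbp2, Oas1a and Tor3a did not overlap between the groups, all higher with LPS, where 0.691% of all genes were higher and 1.37% lower without overlap. For Gbp2 this rested on 2 counts each in RAW_LPS of batches 6 and 8_8, below the floor of 3 counts. These stood at 1.42 and 1.40 CPM, against 1.05 CPM in RAW_Mock of batch 8_8. The member with the smallest p was Trim30a, at 0, 0.374, 0.0553 and 0.448 CPM in RAW_Mock and 0, 294.4, 0 and 182.2 CPM in RAW_LPS of batches 6, 7, 8_8 and 9_4 (log2 fold change 7.30, SE 2.29, unadjusted p = 0.00932). The RAW_LPS sums of batches 6 and 8_8 held no count of it.

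The batches of Live-seq disagreed in which members they detected. In RAW_LPS of batches 6 and 8_8, which hold 4 and 9 cells and 1410305 and 1430546 kept counts, 23 and 27 of the 43 members were at 0, against 2 in batch 7 and 4 in batch 9_4. In batch 7, 39 members had more in RAW_LPS than in RAW_Mock, and in 9_4 38 did, whereas 17 had more and 11 less in batch 6, and 15 had more and 18 less in batch 8_8. Tor3a stood at 53.7, 194.9, 48.7 and 62.7 CPM in RAW_Mock and 296.4, 247.5, 308.3 and 353.9 CPM in RAW_LPS (log2 fold change 2.16, SE 1.09, adjusted p = 1). Oasl1 had 194.4, 0, 14.0 and 19.9 CPM in RAW_Mock, all of the first value from 1 cell, and 762.2, 742.6, 105.6 and 393.6 CPM in RAW_LPS (log2 fold change 4.00, SE 1.77, adjusted p = 1). Ifi44 had 0, 84.7, 0 and 35.4 CPM in RAW_Mock and 0, 586.0, 16.1 and 362.4 CPM in RAW_LPS (log2 fold change 4.43, SE 1.56, adjusted p = 1).

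Sensors and GTPases were likewise uneven between batches. Ifih1 had 107.4, 0, 10.1 and 22.2 CPM in Live-seq RAW_Mock and 0, 7.85, 13.3 and 403.8 CPM in RAW_LPS (log2 fold change 0.65, SE 2.75, adjusted p = 1). Ddx58 was at 0 in 3 RAW_Mock sums and at 31.4 CPM in batch 8_8, where 1 cell held 94.9% of its counts, and at 15.6, 237.1, 0 and 59.6 CPM in RAW_LPS (log2 fold change 3.36, SE 3.45, adjusted p = 1). Gbp5 had 0, 0, 0.387 and 0 CPM and 0, 224.8, 0 and 141.4 CPM in the same order (log2 fold change 8.37, SE 5.14, adjusted p = 1). Gbp5 was thus high in RAW_LPS of batches 7 and 9_4 and at 0 in 6 and 8_8. Irgm1 had 215.5, 11.1, 26.5 and 68.7 CPM in RAW_Mock and 23.4, 79.9, 48.9 and 302.9 CPM in RAW_LPS (log2 fold change 0.72, SE 1.96, adjusted p = 1). Gbp3 had 12.2, 0, 2.21 and 0 CPM and 0, 30.0, 0 and 64.4 CPM (log2 fold change -1.71, SE 3.52, adjusted p = 1), and Gbp7 0.640, 0, 0 and 0 CPM and 0, 15.6, 0 and 32.7 CPM (log2 fold change 6.29, SE 3.29, adjusted p = 1). Both were thus seen in RAW_LPS of batches 7 and 9_4 and not in 6 and 8_8, as were Mx2, at 0, 44.3, 0 and 34.6 CPM with 0 in RAW_Mock, and Cmpk2, at 0, 85.9, 0 and 26.3 CPM (log2 fold change 6.40, SE 3.89, adjusted p = 1). Ifit3b was at 0 in both states of all 4 of these batches.

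Parp9, Oas1a and Oasl1 were above RAW_Mock in RAW_LPS of all 4 batches, whereas Parp14, Dtx3l and Oas3 did not keep one order of states. Parp14 had 0, 0.1247, 10.0 and 18.3 CPM in RAW_Mock and 0, 86.7, 0.699 and 283.1 CPM in RAW_LPS (log2 fold change 5.01, SE 3.02, adjusted p = 1). Parp9 had 0, 47.6, 22.1 and 36.2 CPM and 2.84, 221.1, 31.5 and 296.1 CPM (log2 fold change 2.33, SE 1.17, adjusted p = 1), and Dtx3l 104.9, 161.6, 17.98 and 17.0 CPM and 0, 57.8, 0 and 159.4 CPM (log2 fold change -2.70, SE 2.26, adjusted p = 1). Dtx3l was thus lower in RAW_LPS than in RAW_Mock in 3 of these 4 batches. Oas1a had 32.0, 29.9, 37.7 and 58.2 CPM in RAW_Mock and 101.4, 258.9, 273.3 and 170.0 CPM in RAW_LPS (log2 fold change 2.37, SE 1.53, adjusted p = 1), and Oas3 0, 0.499, 8.96 and 39.6 CPM and 0, 270.3, 0 and 195.5 CPM (log2 fold change 2.13, SE 3.74, adjusted p = 1). Usp18 had 1.92, 30.3, 7.08 and 0.224 CPM in RAW_Mock and 0, 258.0, 51.7 and 235.4 CPM in RAW_LPS (log2 fold change 2.79, SE 2.31, adjusted p = 1).

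Wild-type RAW264.7 cells were sampled after LPS by Live-seq in 1 batch of 11 cells, so line and batch cannot be told apart and no test was made. All 43 members had counts there. Rsad2 was the highest at 2170.4 CPM, against 0.709, 54.2, 0 and 0 CPM in RAW-G9 RAW_LPS of batches 6, 7, 8_8 and 9_4. Oasl1 reached 1821 CPM, Ifit1 1163 CPM and Cmpk2 437.2 CPM, whereas the highest RAW-G9 sums had 762 CPM of Oasl1, 122 CPM of Ifit1 and 85.9 CPM of Cmpk2. Gbp5 went the other way, at 9.82 CPM against 225 CPM in RAW-G9 of batch 7. The LPS response list was at 28098 CPM in the wild type and at 10555 to 27679 CPM in the RAW-G9 sums.

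Members at 0 in every Live-seq RAW_Mock sum were Zbp1, Ifit3, Ifit3b, Mx1, Mx2 and Rsad2. Over the RAW-G9 RAW_LPS sums, against a floor of 3 counts over the RAW_Mock sums, Zbp1 was at least 628-fold higher, Ifit3 at least 485-fold, Mx2 at least 369-fold and Rsad2 at least 328.5-fold. Batch 7 alone held 901 of the 1033 counts of Zbp1, 775 of 798 of Ifit3, 440 of 607 of Mx2 and 539 of 540 of Rsad2. At 50000 counts a cell, Rsad2 was detected in 1 of 16 RAW_LPS cells of batch 7. Ifit3b had 0 and Mx1 had 2 counts in the RAW-G9 RAW_LPS sums, against 483 and 343 in the wild type. The wild type also held 95.4% of the Rsad2 counts of all RAW_LPS sums, 61.2% of those of Mx2, 53.5% of those of Ifit3 and 11.6% of those of Zbp1.

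The difference of the LPS response between techniques was tested in a model of the RAW sums of both. No member and no gene of 11546 was called, which is 0%, and 0 members but 549 genes passed at an unadjusted p under 0.05; DESeq2 called 64 genes and 1 member. The median difference over the members, Live-seq minus scRNA-seq, was 1.15 on the log2 scale, and it ranged from -0.20 to 2.18 over the alternatives, so its sign was not the same under all of them. Without the RAW_Mock cells at an LPS level, 4 of scRNA-seq and 3 of Live-seq, it was 0.60.

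Of the Live-seq cells, 4 RAW cells were sampled before and after LPS, and these libraries are among the RAW_Mock and RAW_LPS sums. The members' summed level went from 439 to 4391 CPM in the first cell, from 1028 to 8277 CPM in the second, from 412 to 2451 CPM in the third and from 0 to 9586 CPM in the fourth. Both libraries of the third carry the same label of order, and their state labels were used in its place. All 4 cells carried more of the module after LPS, with 5 members detected before and 24 after in the first, 3 and 15 in the second, 4 and 15 in the third and 0 and 30 in the fourth. The leading member after LPS was Oasl1 in the first 2 cells and Trim30a in the other two. These libraries were not thinned to one depth. Kept counts before and after LPS were 373383 and 466838 in the first cell and 275355 and 707882 in the second. They were 430075 and 300685 in the third cell and 122643 and 729802 in the fourth. The part of depth was not tested, and no test was made on 4 cells of 2 batches.

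Within the LPS-treated RAW cells of scRNA-seq the module was carried unevenly. After thinning the 149 scRNA-seq RAW_LPS cells to 50000 kept counts each, the members' summed level ran from 320 to 16720 CPM around a median of 2700 CPM, and the 90th percentile was 6.46 times the 10th. The ratio was 5.66, 5.78 and 5.78 in batches 8_8, 9_1 and scRNA, while it was 7.43, 5.10 and 5.85 at 20000 counts and 5.25, 6.04 and 5.65 without thinning. The LPS response list in the same cells gave 10.4, 3.29 and 3.65. Its spread was thus smaller than that of the members in batches 9_1 and scRNA and larger in 8_8. The top 10% of cells held 32.3%, 24.8% and 28.1% of the summed member level, against 27.9%, 22.6% and 18.3% for the LPS response list. A cell had a count of 24 members in the median (11, 26 and 24 by batch), from 2 to 40. Live-seq RAW_LPS cells at 50000 counts did not share one spread: the ratio was 1.67 in batch 9_4 (10 cells), 7.59 in 5Reseq (11 cells) and 24.4 in batch 7 (16 cells), against 2.40, 3.20 and 1.60 for the LPS response list. In batches 6 and 8_8, with 4 and 8 cells, it was 11.4 and 40.6. At this depth batches 6, 7 and 8_8 had cells with no member count. Without thinning the lowest RAW_LPS cell had 9.77 CPM in batch 6 and 9.61 CPM in 8_8, and only batch 7 reached 0.

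**Figure D4:**
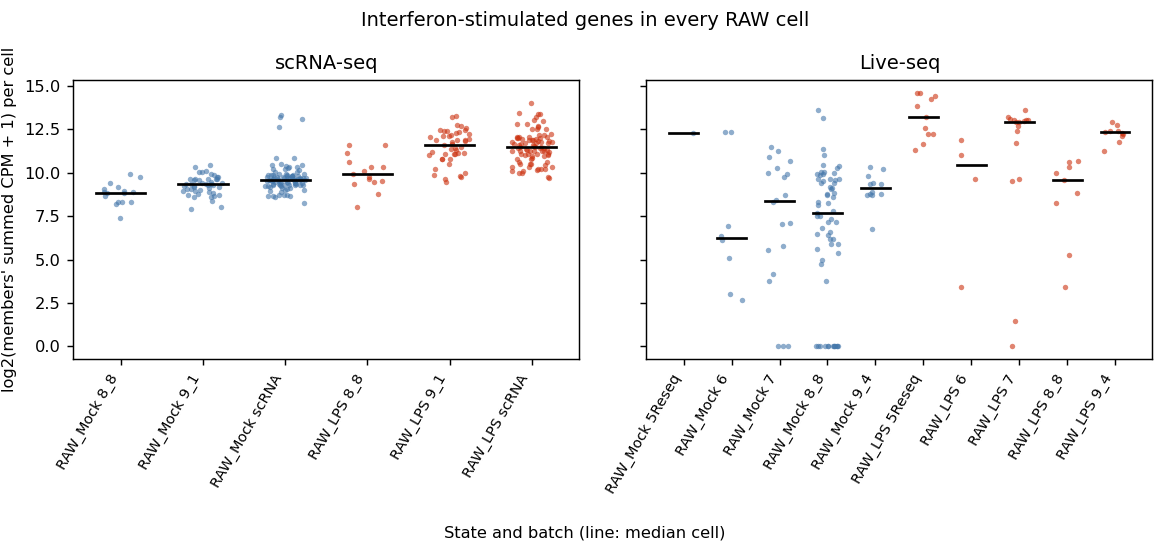
Summed level of the 43 members in every RAW cell (log2 of CPM + 1, not thinned) for scRNA-seq and Live-seq, by state and batch; each point is 1 cell, the black line is the median cell, and batch 5Reseq is wild type with 1 RAW_Mock cell. In scRNA-seq, 4 RAW_Mock cells of batch scRNA lie at 6274 to 10071 CPM among the RAW_LPS cells, and in Live-seq cells without any member count lie at 0.

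Detection differed widely between members. At 50000 counts a cell, the share of scRNA-seq RAW_LPS cells with a count had a median of 58.4% over the members against 23.7% in RAW_Mock, which is a share at this depth and not a share of expressing cells. Tor3a was detected in 97.3% of RAW_LPS cells and in 76.9% of RAW_Mock cells, and Parp14 in 93.3% and 25.6%. Mx2 was detected in 36.2% of RAW_LPS cells and in 0 of the RAW_Mock cells, which allows a share of up to 1.92%. Without thinning Mx2 was detected in 52.3% and 1.91%, and the median over the members was 73.2% and 33.8%. At 50000 counts Isg15 was detected in 68.5% and 3.85% and Gbp5 in 37.6% and 1.28%. Ifit2 and Samhd1 were not more often detected with LPS, at 34.2% and 35.9% for Ifit2 and 70.5% and 81.4% for Samhd1 in RAW_LPS and RAW_Mock. In Live-seq the medians were 34.7% in RAW_LPS and 1.96% in RAW_Mock, and the pooled RAW_LPS cells ran from no member to 42 members.

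In the larger scRNA-seq batches, cells rich in 1 member tended to be rich in the others. Across the 46 RAW_LPS cells of batch 9_1, each of 37 members detected in at least 10 cells had a positive Spearman correlation with the sum of the remaining members (median rho 0.55, range 0.13 to 0.73), and across the 88 cells of batch scRNA 36 of 36 did (median 0.48, range 0.07 to 0.76). The strongest were Trim30a and Oas3 in batch 9_1 and Ifi44 and Irf7 in batch scRNA; the weakest were Gbp2 in 9_1 and Irf1 in scRNA. In batch 8_8, 5 of 6 members were positive (median 0.39, lowest -0.07). In Live-seq 3 of 3 members were in batch 5Reseq (median 0.15), 8 of 8 in batch 7 (median 0.485) and 2 of 2 in batch 9_4 (median 0.74). The limit of 10 cells left few members in these batches of 11, 16 and 10 cells. In 9_4 it kept only members detected in every cell. Members below the limit in 9_4 went both ways, such as Parp14 at 0.578 and Tor3a at -0.329, each detected in 8 cells. The members of batches 9_1 and scRNA had median correlations of -0.05 and 0.13 with the LPS response list. The module as a whole correlated with the LPS response list at rho 0.04, -0.06 and 0.23 in batches 8_8, 9_1 and scRNA, and with the cell's total counts at -0.08, -0.01 and 0.05. These cells share libraries prepared in 1 batch, and the values are descriptions.

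**Figure D5:**
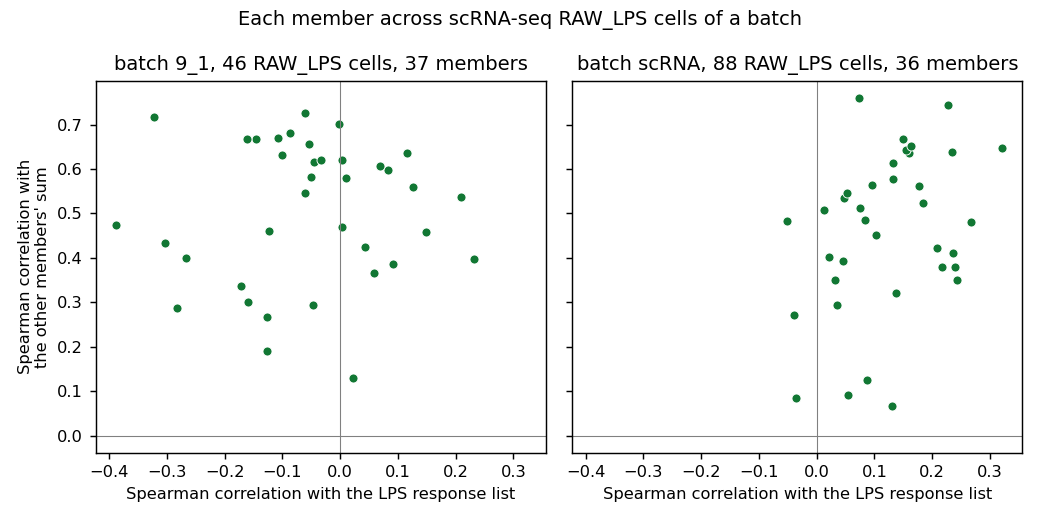
Spearman correlation across scRNA-seq RAW_LPS cells of each member with the sum of the other members (vertical) and with the LPS response list (horizontal) in batch 9_1 (46 cells) and batch scRNA (88 cells); each point is 1 member detected in at least 10 cells. All points lie above 0 on the vertical axis, whereas they fall on both sides of 0 on the horizontal axis.

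In resting cells, the members did not rank as 1 block between cell types. Of 41 members, 12 were higher in scRNA-seq RAW_Mock than in IBA and 4 were lower, where 33.7% of all genes were called, 11.9% higher and 21.8% lower. The higher ones included Oas2 (log2 fold change 9.40, SE 1.60, adjusted p = 0.00188), Oas1a (log2 fold change 5.38, SE 1.03, adjusted p = 0.00348), Ifi44 (log2 fold change 4.69, SE 0.96, adjusted p = 0.00478) and Irf7 (log2 fold change 2.84, SE 0.73, adjusted p = 0.0138). Irf1, Isg15, Gbp7 and Ifit3b were lower in RAW_Mock. Isg15, for example, had 0, 0.626 and 13.3 CPM in RAW_Mock and 4.79, 42.5 and 18.4 CPM in IBA (log2 fold change -3.33, SE 1.14, adjusted p = 0.0445), and Gbp7 had 0, 0 and 1.02 and 5.21, 51.9 and 24.0 CPM (log2 fold change -6.38, SE 1.36, adjusted p = 0.00567). Without the 4 mock cells 10 members were higher and 12 lower, and the median log2 fold change went from 0.16 to -0.26. The direction of the median thus changed without these cells, and the calls went from 16 to 22, where those over all genes went from 4569 to 4611.

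Primary progenitors carried more of 10 members than the preadipocyte line. In ASPC_Pre against IBA, 10 of 41 members were higher and 0 lower, where 11.2% of all genes were called, 7.47% higher and 3.69% lower. Irgm1 had 66.6 and 216.5 CPM in ASPC_Pre of batches 8_8 and 9_1 and 12.9, 25.2 and 20.2 CPM in IBA of 8_8, 9_1 and scRNA (log2 fold change 3.03, SE 0.46, adjusted p = 0.00636). Bst2 had 10.7 and 106.9 CPM and 2.08, 9.25 and 15.5 CPM (log2 fold change 3.24, SE 0.51, adjusted p = 0.00793), and Irf7 had 5.84 and 38.3 CPM and 0.6253, 4.89 and 3.35 CPM (log2 fold change 3.78, SE 0.76, adjusted p = 0.0187). The others were Cmpk2, Oas2, Ifit3, Ifi47, Trim30a, Ifih1 and Irf9. Without the batch block 3 members were called, and without batch 9_1, which leaves 1 ASPC_Pre sum, none was. Ifit3 was at 2.68 CPM in ASPC_Pre of batch 8_8 and 78.4 CPM in 9_1, and its call was lost without the second. Live-seq gave the same division, with 0 CPM in ASPC_Pre of 8_8 and 79.3 CPM in 9_4.

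After adipogenic induction the members stood at 904 CPM in scRNA-seq and 771 CPM in Live-seq, 1 batch each with no test. A single cell held 45.7% of the member counts of the former and 42.8% of the latter. These cells reached 20783 and 20890 CPM, whereas the next highest cells had 1107 and 1624 CPM, and without them the sums were 501 and 448 CPM. Ifit1 led in both, at 7823 and 9773 CPM, with 99.4% and 100% of the Ifit1 counts of the sum, and Ifit2 and Oasl1 followed. The LPS response list was at 803 and 662 CPM in these cells. In ASPC_Pre the members had 1384 CPM in scRNA-seq of batch 9_1 and 1164 CPM in Live-seq of batch 9_4, so both ASPC_Post sums lay below them.

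IBA cells of the extraction test carried the module at 340 CPM (95% exact Poisson interval 333 to 348) in those labelled 0 h, 358 CPM (351 to 366) at 1 h and 353 CPM (343 to 362) at 4 h, in 70, 49 and 43 cells of batch 8_1. These intervals cover counting error only. The interval of 4 h overlapped both others, that of 1 h lay above that of 0 h, and with 1 sum per time no test was possible. Ifit1 was at 0.369, 0.231 and 1.76 CPM and Isg15 at 1.52, 2.91 and 7.86 CPM. The LPS response list was 2081, 3403 and 2050 CPM in the same sums.

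Batch 8_8 had the lowest level of the module in all 8 groups of technique and state that it shares with other batches. In scRNA-seq it had 370 CPM in IBA against 720 and 862 CPM in the others, and 556 against 1384 CPM in ASPC_Pre. In Live-seq the values were 193 against 618 and 1591 CPM in IBA, and 289 against 1164 CPM in ASPC_Pre. The LPS response list was lowest in batch 8_8 in 4 of the 8 groups. In scRNA-seq the sums of batch 8_8 held fewer counts than those of 9_1 and scRNA. In Live-seq, batch 8_8 held the fewest kept counts in IBA (4322222) and in ASPC_Pre (4009619). In Live-seq RAW_Mock it held the most (18078717), from 63 cells against 8 to 20 in the others. It had 13 members at 0 there, against 19 to 26. In Live-seq RAW_LPS it held 1430546 kept counts from 9 cells, and batch 6 held 1410305 from 4. The part of depth in the low level of batch 8_8 was not tested.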

How the data were processed

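Single-cell transcriptomes of Live-seq samples and whole cells were prepared by a Smart-seq2-type protocol without molecular identifiers. The authors demultiplexed the reads (bcl2fastq 2.19.1, per the submitters' processing notes), aligned them with STAR 2.6.1c to mm10 and counted them per gene with HTSeq without strand. The deposited values are raw counts, 38451 to 2671609 per library, and cells had been filtered before deposit. No doublet caller was run, since cells were sampled singly.

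As in the study, 20 genes of its negative control and 91 genes of ribosomal proteins were removed, and the other counts were summed per technique, state and batch of at least 3 cells. The batch is the replicate and its level is fitted as a block, so p-values measure how far differences between states vary over batches. That spread was estimated from all sums of a technique, those of IBA and ASPC included. The model of both techniques used the RAW sums alone. A gene was kept if 15% or more of the cells of any scRNA-seq state had 2 or more counts of it, and if it passed filterByExpr (count limit 2, proportion limit 0.05). edgeR 4.0.16 (R 4.3.3) fitted state and batch by the quasi-likelihood method (legacy fit, TMM), with Benjamini-Hochberg adjustment over all genes tested; a call needed an adjusted p under 0.05 and an absolute log2 fold change over 1. Batch was kept as a replicate block because the labels name shared batches and the study's model holds it: deviations of RAW_Mock and RAW_LPS of the same batch correlated at 0.25, 0.36 and 0.44 in scRNA-seq (batches 8_8, 9_1, scRNA) and at 0.24, 0.06, 0.00103 and 0.12 in Live-seq (6, 7, 8_8, 9_4). The alternatives used DESeq2 1.42.0, limma 3.58.1 on log2(mean CPM + 1), RLE size factors, no filter, no block, RAW sums only and each batch left out. Cells were thinned to 50000 kept counts (20000 as an alternative) for spread and detection. Shares of a count of 0 use a floor of 3 counts, and intervals are 95% exact Poisson ones. The steps were tested on simulated data.

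Named genes were the 12 members with the highest mean CPM in scRNA-seq RAW_LPS and the 6 others with the largest absolute change. Members and lists were chosen with earlier results of these data known. Symbols came from a table that matched 30322 of 30452 identifiers, and exon overlaps from a mouse annotation of the same build. For 9 members no promoter window was at hand. LPS dose and exposure are not given here because the sources differ.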

Additional observations from a re-analysis of the deposited data

Results flagged for a closer look

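Among the named members in Live-seq, 10 values stood apart from the other batches of their group, of 38 groups examined. The nominal rate of 1 in 20 does not hold where all other batches are at 0, since any count is then flagged. The number flagged can thus not be weighed against chance. In RAW_LPS the wild-type batch 5Reseq was the highest for Tor3a at 676.5 CPM (next 353.9), Mx2 at 184 CPM (next 44.3), Ifit3b at 93.0 CPM (next 0) and Cmpk2 at 437 CPM (next 85.9). These came from 9, 5, 5 and 7 of the 11 cells, and no cell held more than 36.0% of any of them. Line and batch cannot be told apart here.

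In RAW_Mock, Tor3a was highest in batch 7 at 194.9 CPM (next 62.7), with 47.5% of its counts in 1 of 5 cells that had any. Oasl1 was highest in batch 6 at 194.4 CPM (next 19.9), all from 1 cell. Ddx58 was highest in batch 8_8 at 31.4 CPM with 0 in the others, and 94.9% of its 567 counts came from 1 cell. Gbp5 in batch 8_8 (0.387 CPM, 7 counts), Cmpk2 in batch 6 (1.28 CPM, 2 counts) and Gbp7 in batch 6 (0.640 CPM, 1 count) were each the one RAW_Mock sum with a count.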

How the results depend on the processing

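The numbers of members called depended on the fit. For LPS against mock in scRNA-seq, where 6 members were called, the edgeR 4 fit and limma called 15 each, DESeq2 23, no filter 13, RAW sums only 13, the fit without the 4 mock cells 20 and no replicate block 0; leaving out a batch gave 0 to 1. RLE size factors and keeping the ribosomal protein genes gave 6 each. Over all genes the calls, 1.23% of those tested, became 410, 714, 457, 253, 509, 290 and 35 under the edgeR 4 fit, DESeq2, limma, no filter, RAW sums only, without the 4 mock cells and without the replicate block, and 0 to 18 without a batch. The median of the members stayed positive, from 1.58 to 2.91.

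In Live-seq no member was called except under DESeq2 (4), and none without the replicate block; the median ranged from 1.99 to 5.25. DESeq2 called 1 member for the difference between techniques. The median of that difference, 1.15, was -0.029 with limma, -0.20 without replicate 7 and 2.18 without replicate 8_8, its range with a batch left out being -0.20 to 2.18.

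For RAW_Mock against IBA, 16 members were called, 11 without the replicate block and 10 to 17 with a batch left out. Its median of 0.16 was -0.16 to 0.92 with a batch left out (-0.16 without replicate scRNA) and -0.26 without the 4 mock cells. For ASPC_Pre against IBA, 10 members were called, 3 without the replicate block and 0 to 7 with a batch left out; all genes went from 1514 to 950 without the block, 2627 under the edgeR 4 fit, 2882 under limma and 43 to 1537 with a batch left out. The cause of these changes was not tested.

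The 90th to 10th percentile ratio of the module over RAW_LPS cells, 6.46, was 6.08 without thinning, 7.11 at 20000 counts, 7.38 without Tor3a and 5.86 to 7.46 with a batch left out. Of the single-member results under alternatives, 169 had the same status as in the main fit, called or not called. A further 30 gained a call, 17 lost it and 0 changed direction. Depth limits Live-seq most, where the smallest sums, of 1410305 to 1563662 kept counts, make 3 counts worth about 2 CPM.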

Other observations

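Outside RAW_LPS, 10 cells carried the members above 6101 CPM, the 90th percentile of scRNA-seq RAW_LPS cells. Besides the 4 RAW_Mock cells and the 2 ASPC_Post cells described above, they were 1 scRNA-seq ASPC_Pre cell at 6137 CPM with 42 members detected, 1 scRNA-seq IBA cell at 8169 CPM with 31, and 2 Live-seq RAW_Mock cells of batch 8_8. In the IBA cell Ifit1 led at 4367 CPM, followed by Rsad2 at 703 CPM and Isg15 at 551 CPM, and the LPS response list was at 78.1 CPM. In the ASPC_Pre cell Ifit1 led at 1756 CPM, followed by Ifit3 at 833 CPM and Irgm1 at 629 CPM. The RAW_Mock cells differed from all of these: 1 had 12523 CPM with 99.6% in Ddx58 and 2 members detected, and the other had 9152 CPM in Irf9 alone.

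In Live-seq batch 8_8, 3 of 63 RAW_Mock cells carried the LPS response list above the median RAW_LPS cell of the batch, at 14826 to 30838 CPM, with the members at 533 to 2049 CPM. Without them the members' sum there was 478 CPM instead of 516 CPM.

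Over the 30 sums, the genes outside the module whose level was most like the members' mean were Trim34a (Spearman rho 0.89), Irgm2 (0.85), Gm20939 (0.84), Rnf145 (0.81) and Lgals3bp (0.80). The sums share batches and cell types, and the correlations are descriptions. Cxcl10, a chemokine gene regulated by interferon, was at 0 in every RAW_Mock sum of both techniques and did not pass in either. In RAW_LPS of the batches with both states it had 630 counts in scRNA-seq, at least 214.9-fold above a floor of 3 counts over the RAW_Mock sums, and 148 in Live-seq, at least 90.03-fold, of which all but 3 came from batch 7.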
